A study of Mus musculus with 18 samples.

Results

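The genes of the ribosomal proteins were examined as targets of miRNAs in cultured murine keratinocytes, the main cell type of the epidermis. The group was defined by symbol: protein-coding RefSeq genes whose names begin with Rpl or Rps followed by a digit, a or p0 to p2, without the Rps6k kinases and without names ending in -ps. Of 101 matching symbols, 10 kinases and 2 -ps names were left out, which gave 89 genes of 21900 protein-coding genes. A chimeric read was counted for a gene when the midpoint of its target part lay in that gene and in no other protein-coding gene. By this count 2109 of 1153545 reads lay on ribosomal protein genes, and 78 of the 89 genes had at least 1 read.

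The assay, CLEAR-CLIP, crosslinks Argonaute 2 to RNA with UV light (300 mJ/cm2 at 254 nm), precipitates it and ligates the miRNA to the RNA it is bound to, so that each chimeric read names a miRNA and a target position. The 18 libraries came in 2 sets. Set 1 held 6 libraries of K14-Cre only control cells (Cre recombinase driven by the keratin 14 promoter) and 3 of miR-200 DKO cells. Set 2 held 3 libraries of miR-200 inducible cells left without doxycycline, which served as control and carry the transgene too, 3 of miR-200 DKO cells, and 3 of miR-200 inducible cells treated with doxycycline (3 ug/ml, 24 hours). The labels name neither the deleted miR-200 clusters, nor the miRNAs on the transgene, nor separate animals or clones, and each library came from 1 culture dish. All libraries of a group were deposited as 1 pool without library names, so each group is 1 sample here. No test between groups was possible, and every interval below is an exact 95% interval that covers counting error only.

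Ribosomal proteins form the large and the small subunit together with ribosomal RNA, and the acidic P proteins build the stalk of the large subunit that recruits translation factors. Their mRNAs are short, abundant and share a pyrimidine tract at the 5′ end through which growth signals set their translation. In vertebrates the introns of many of these genes also encode small nucleolar RNAs (snoRNAs), which guide the modification of ribosomal RNA and are cut out of the host transcript. A miRNA is recognised in its targets mainly through its seed, bases 2 to 8.

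Many reads on these genes lay in a few places, and at some of these places miRNAs of 1 seed gave most of the reads. The miRNAs that lead at the most heavily covered snoRNAs are shown with the seed in capitals, as RefSeq gives them (build GRCm38.p6), because members of a seed family occur together at the same place. For the snoRNA within Rps12 they are
miR-26a-5p: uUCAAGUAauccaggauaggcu
miR-26b-5p: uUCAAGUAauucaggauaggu

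The snoRNA within Rpl7a was covered by miRNAs with another shared seed.
miR-25-3p: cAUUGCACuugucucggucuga
miR-32-5p: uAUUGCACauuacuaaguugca
miR-92a-3p: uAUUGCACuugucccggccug

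Snora52 within Rplp2 was covered by miR-34 members, of which miR-34c-5p is named only.
miR-34a-5p: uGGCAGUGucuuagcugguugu
miR-34b-5p: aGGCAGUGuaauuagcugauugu

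A site in Rpl14 outside any small RNA gene was led by the miR-15 and miR-16 seed.
miR-15a-5p: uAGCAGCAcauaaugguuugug
miR-15b-5p: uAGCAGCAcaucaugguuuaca
miR-16-5p: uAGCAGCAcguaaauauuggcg

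A site in Rps20 was held by the members of the miR-200 family that share the seed of miR-200b, shown because this family is the one the study deleted and induced.
miR-200b-3p: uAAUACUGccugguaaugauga
miR-200c-3p: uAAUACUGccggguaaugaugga
miR-429-3p: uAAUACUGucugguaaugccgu

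The remaining miRNAs each led at a place alone, and no seed is shared among them.
miR-96-5p: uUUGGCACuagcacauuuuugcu
miR-193a-3p: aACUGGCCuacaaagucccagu
miR-1191b-3p: aGACUCACuauguagcccaagc
miR-5121: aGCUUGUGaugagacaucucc
miR-7650-5p: aAUCCUCUugcaacccagaacu

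Depth differed between pools, from 48662 reads (set 1 DKO) and 161692 (set 1 control) to 210003 (set 2 DKO), 314071 (set 2 uninduced) and 419117 (set 2 induced). A count of 0 allows up to 3 reads, which is 6.16, 1.86, 1.43, 0.955 and 0.716 per 100000 reads in the same order. The keratinocyte label was checked against defining genes: all 10 keratinocyte markers had reads, with a summed level of 296 to 584 per 100000 over the pools. By comparison 2 of 7 fibroblast markers (0 to 3.18; Col1a1, Col1a2, Col3a1, Dcn and Lum at 0), 3 of 6 melanocyte markers (2.87 to 10.3; Dct, Mlana and Sox10 at 0), 1 of 4 immune markers (0 to 0.239; Ptprc, Cd74 and Lyz2 at 0) and 3 of 4 endothelial markers (2.15 to 6.16; Cdh5 at 0) had reads. In set 1, 9 miRNAs such as miR-709 and miR-3470b were overrepresented. Each set may be a batch of its own, so differences between sets and differences between batches cannot be told apart. Reads that a further pool of their set repeats in every coordinate and the barcode made up 2.48% to 10.0% of the reads on ribosomal protein genes, against 5.24% to 17.4% of all reads.

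Ribosomal protein genes received 242 reads in set 1 control, 0.150% of the pool (0.131 to 0.170). The set 1 DKO pool gave 60 reads, 0.123% (0.0941 to 0.159). In set 2 the uninduced control gave 542 reads, 0.173% (0.158 to 0.188), the DKO pool 427, 0.203% (0.185 to 0.224), and the induced pool 838, 0.200% (0.187 to 0.214). The intervals of these shares overlap between DKO and control in both sets and between induced and uninduced cells. The ratio of DKO to control was 0.824 (0.610 to 1.10) in set 1 and 1.18 (1.04 to 1.34) in set 2, and that of induced to uninduced was 1.16 (1.04 to 1.29). Both set 2 intervals included 1 when each combination of position, strand and miRNA was counted once, at 1.12 (0.979 to 1.29) for DKO and 1.04 (0.923 to 1.17) for induction. Without Rps12, the gene with most reads, the induced ratio was 1.10 (0.975 to 1.24). In bulk samples such as these, fewer cells with a transcript and less of it per cell cannot be told apart, and a chimeric read count also moves with the abundance of both partners.

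**Figure D1:**
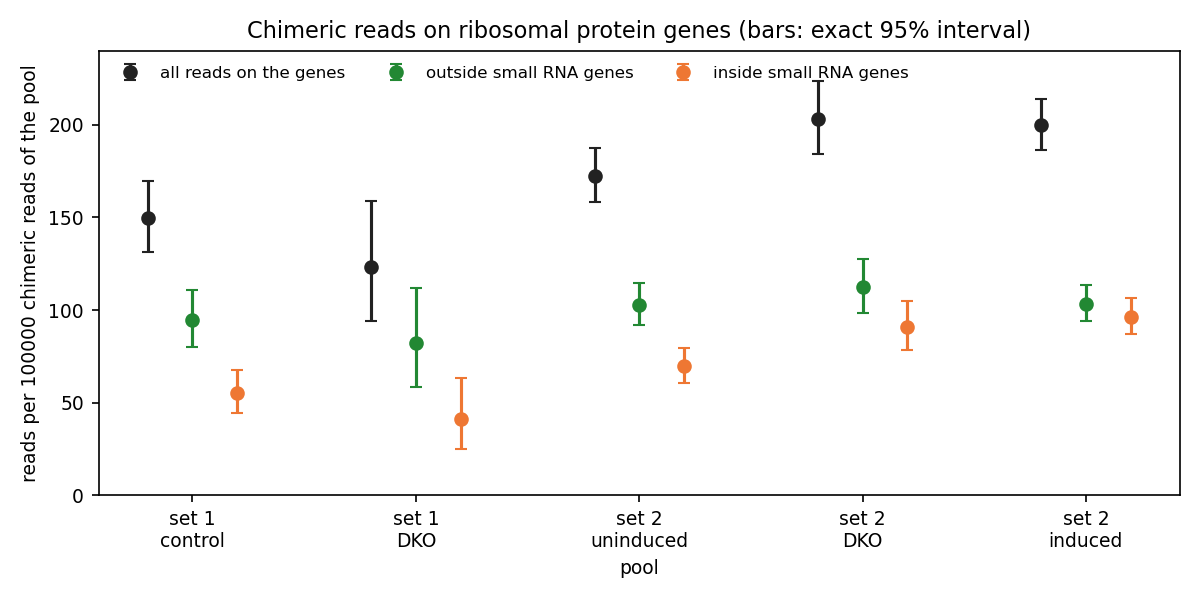
Reads on ribosomal protein genes per 100000 chimeric reads (y axis) in each of the 5 pools (x axis), for all of them and split by whether the target midpoint lay in an annotated small RNA gene; points are pooled values and bars exact 95% intervals. The values inside small RNA genes are 55.0 and 41.1 in set 1, against 69.7, 91.0 and 96.4 in the pools of set 2, while those outside lie between 82.2 and 112.

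The snoRNAs carried by these genes held much of the signal. Of the 2109 reads, 923 (43.8%) had their midpoint in an annotated small RNA gene, 914 of them in a snoRNA gene. The share was 36.8% (30.7 to 43.2) in set 1 control and 33.3% (21.7 to 46.7) in set 1 DKO. In set 2 it was 40.4% (36.2 to 44.7) in uninduced, 44.7% (39.9 to 49.6) in DKO and 48.2% (44.8 to 51.7) in induced cells, so that the intervals of uninduced and induced cells did not overlap. On all other protein-coding genes it was 0.836%, and on the 56 genes of translation initiation factors it ran from 0.703% to 3.79% over the pools. The 89 genes accounted for 44.7% of all 2045 reads in snoRNAs lying within a protein-coding gene. These reads fell on 51 small RNA genes in 27 host genes.

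Split this way, the set 2 ratios had intervals above 1 inside small RNA genes and intervals that include 1 outside them. Inside small RNA genes the share in DKO over uninduced was 1.30 (1.07 to 1.59) and in induced over uninduced 1.38 (1.17 to 1.64). Outside them the same ratios were 1.09 (0.920 to 1.30) and 1.01 (0.870 to 1.17). In set 1 the DKO ratios were 0.747 (0.435 to 1.22) inside and 0.869 (0.597 to 1.24) outside. Strand was known for 69 genes, and 1655 of their 1666 reads (99.3%) lay on the strand of the gene, against 97.9% over all protein-coding genes.

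The most covered gene was Rps12 (chromosome 10, 23785183 to 23787383, minus strand), a small subunit protein, with 15, 3, 81, 49 and 162 reads in set 1 control, set 1 DKO, uninduced, set 2 DKO and induced pools. Of these 310 reads, 98.1% lay in snoRNAs and 298 in a single one, LOC115487513 (23786470 to 23786543). miR-26a-5p gave 146 and miR-26b-5p 89 of the 298, together 78.9%, although 30 miRNAs were seen there. Both belong to a family with a shared seed that is broadly expressed and associated with differentiation. Their reads made up 1.36% of all chimeric reads, and 1.50% of all their reads lay on this snoRNA.

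Per 100000 reads, the miR-26 pair on this snoRNA stood at 5.57 and 6.16 in the set 1 pools and at 18.5, 14.8 and 32.0 in uninduced, DKO and induced cells of set 2. The induced pool was the highest. Its ratio to uninduced was 1.73 (1.26 to 2.40), and 1.70 (1.24 to 2.36) when divided by all miR-26 reads of each pool. The 235 reads rest on 99 distinct combinations of position and miRNA, with 138 different barcodes. For Rps12 as a whole the induced ratio of 1.50 (1.14 to 1.98) became 0.977 (0.663 to 1.45) with each combination counted once.

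Along the snoRNA the miR-26 reads and those of other miRNAs overlapped, but the miR-26 reads peaked nearer the 5′ end. All 235 miR-26 reads covered bases 10 to 29 from the 5′ end of the snoRNA. From base 5 to base 42 their number was at least 50% of this height. The 63 reads of other miRNAs were highest, at 50 reads, over bases 45 to 64. Many miR-26 reads covered this stretch too, 108 at base 45 and 104 at base 64.

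**Figure D2:**
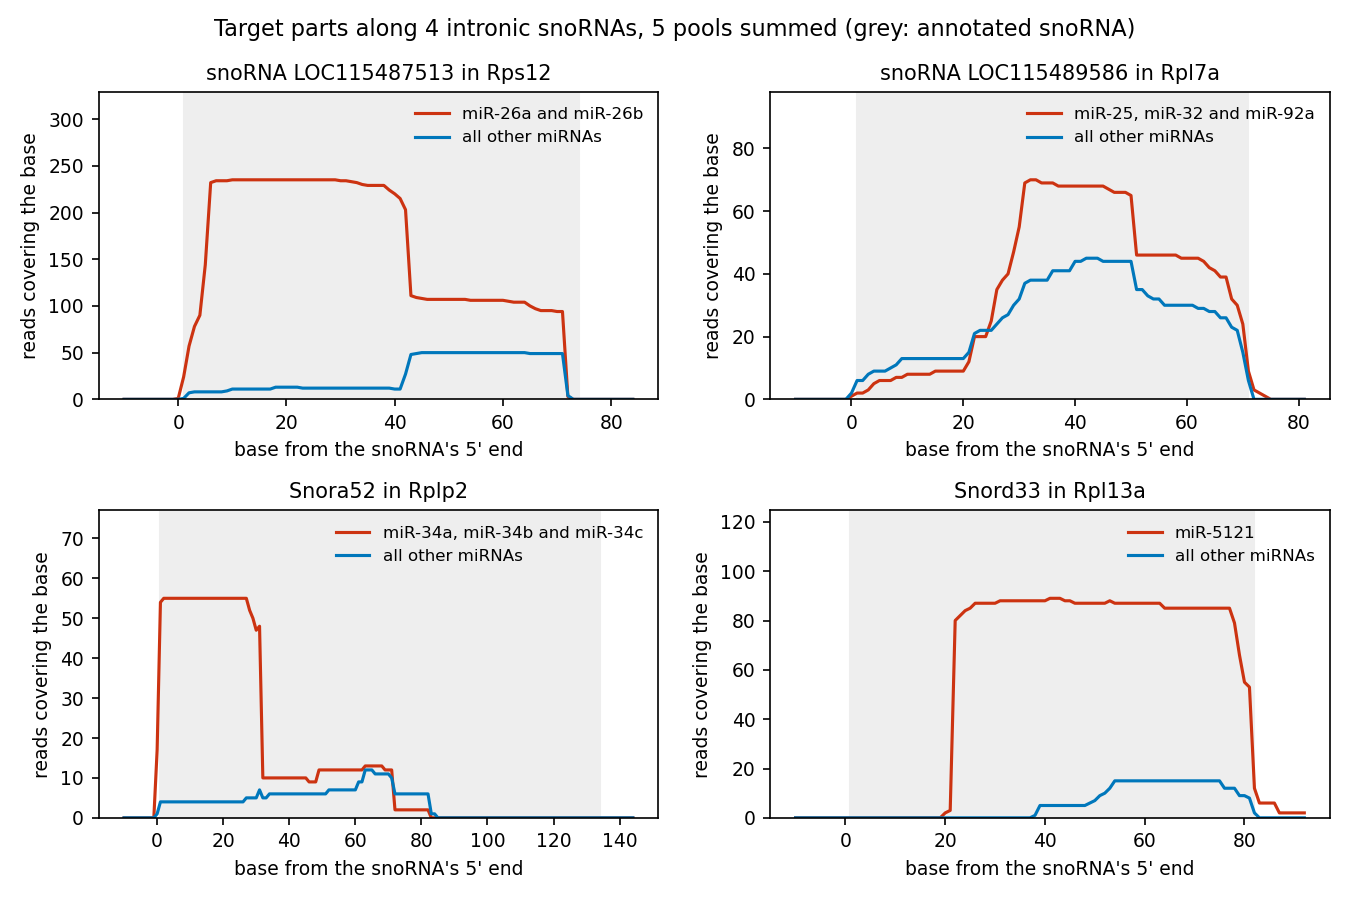
Number of reads covering each base (y axis) by distance from the annotated 5′ end (x axis, bases) of 4 snoRNAs, with the leading seed family in red, all other miRNAs in blue, the 5 pools summed and the annotated snoRNA shaded. Reads of the leading family reach 235, 70, 55 and 89, and in the snoRNA of Rps12 and in Snora52 they peak nearer the 5′ end than the reads of other miRNAs.

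Rpl7a (chromosome 2, 26910685 to 26913312, plus strand), a large subunit protein whose gene hosts several snoRNAs, had 4, 2, 34, 49 and 47 reads in the same order of pools, 97.8% of them in snoRNAs. A single snoRNA, LOC115489586 (26912530 to 26912600), held 116. miR-25-3p gave 41, miR-32-5p 15 and miR-92a-3p 14 of these, 60.3% for the shared seed. The snoRNA stood at 8.92 per 100000 in uninduced, 20.0 in DKO and 9.78 in induced cells. DKO was thus above both other pools of the set, with a ratio to uninduced of 2.24 (1.36 to 3.76), while induced over uninduced was 1.10 (0.662 to 1.84). For the seed family alone the DKO ratio was 1.66 (0.835 to 3.33). Other miRNAs reached 45 reads over bases 42 to 44, close to the 70 reads of the family over bases 32 to 33.

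Rplp2 encodes an acidic stalk protein (chromosome 7, 141447651 to 141451359, plus strand) and had 10, 1, 24, 19 and 39 reads, 90.3% of them in Snora52 (141448803 to 141448936), an H/ACA snoRNA. There miR-34a-5p gave 51, miR-34c-5p 11 and miR-34b-5p 6 of 84 reads, 81.0% together. The miR-34 family is known as a transcriptional target of p53. Of all reads of these miRNAs, 2.14% lay on Snora52, with 2.52%, 0.813%, 2.14%, 2.15% and 2.17% by pool. The set 1 DKO value rests on a single read. At 50% of their peak the miR-34 reads spanned bases 1 to 31 of the 134-base snoRNA, while the few reads of other miRNAs peaked at bases 63 to 65.

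The other stalk genes held fewer reads and none in a small RNA gene. Rplp1 had 0, 2, 9, 5 and 8 reads, 9 of the 24 with miR-423-3p, all within a site of 16 reads (chromosome 9, 61914372 to 61914474, minus strand). Rplp0, the stalk's anchor on the ribosome, had 0, 0, 4, 5 and 11 reads, led by miR-182-5p with 4. In set 1 control both were at 0.

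Rpl13a (chromosome 7, 45125563 to 45128745, minus strand) is a large subunit protein and a known host of several C/D box snoRNAs. It had 38, 5, 38, 30 and 75 reads, 81.2% of them in small RNA genes. Snord33 (45126864 to 45126945) held 105 reads, and miR-5121 gave 90 of them. The mature miR-5121 is annotated at 45126925 to 45126945 on the same strand, within Snord33 itself. The target parts ran from 45126865 to 45126924 (medians), directly beside it. In 77 of the 90 reads no base separated miRNA and target in the genome, and in 87 at most 4 did. Of the 91 reads of miR-5121 in all pools, 90 were these.

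Whether these contiguous reads are ligations or uncut stretches of Snord33 was not tested. They numbered 33 in set 1 control, 5 in set 1 DKO, and 9, 12 and 31 in uninduced, DKO and induced cells, or 20.4, 10.3, 2.87, 5.71 and 7.40 per 100000. Over all ribosomal protein genes 95 reads (4.50%) had the gene of their own miRNA within 100 bases on the same strand, against 7372 (0.639%) of all reads. Besides miR-5121 these included 2 of miR-3091 arms on Rps21. Apart from miR-5121, the reads on Snord33 named mainly miR-301a-3p (11 reads) and miR-130a-3p (2 reads), which share a seed.
miR-301a-3p: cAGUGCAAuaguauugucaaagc
miR-130a-3p: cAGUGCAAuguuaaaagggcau

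A further snoRNA was tied to a miRNA of similar rarity. AF357399, within Rps16 (chromosome 7, 28351540 to 28351633), held 23 reads, all those of Rps16, and 21 of them named miR-7650-5p. Only 32 reads of miR-7650-5p were found anywhere. Its gene lies elsewhere (chromosome 9, 15312611 to 15312632), within the annotated genes Taf1d and Gm25500, so these reads are not contiguous with that gene. Whether AF357399 itself holds a sequence like that of miR-7650-5p was not tested. They numbered 7, 3, 4, 1 and 6 by pool.

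Other snoRNAs showed no such leading seed. Snord42a in Rpl23a had 28 reads from 22 miRNAs, the most frequent with 3. Snord35a in Rpl13a had 28 reads from 14 miRNAs, led by miR-96-5p with 6. In Rpl17, a large subunit protein with 0, 1, 9, 15 and 24 reads, 32 lay in Gm23301, with miR-205-5p at 10 and miR-21a-5p at 3. Snord35a and Snord42a, with as many reads as some of the snoRNAs above, were thus shared by many seeds.

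**Figure D3:**
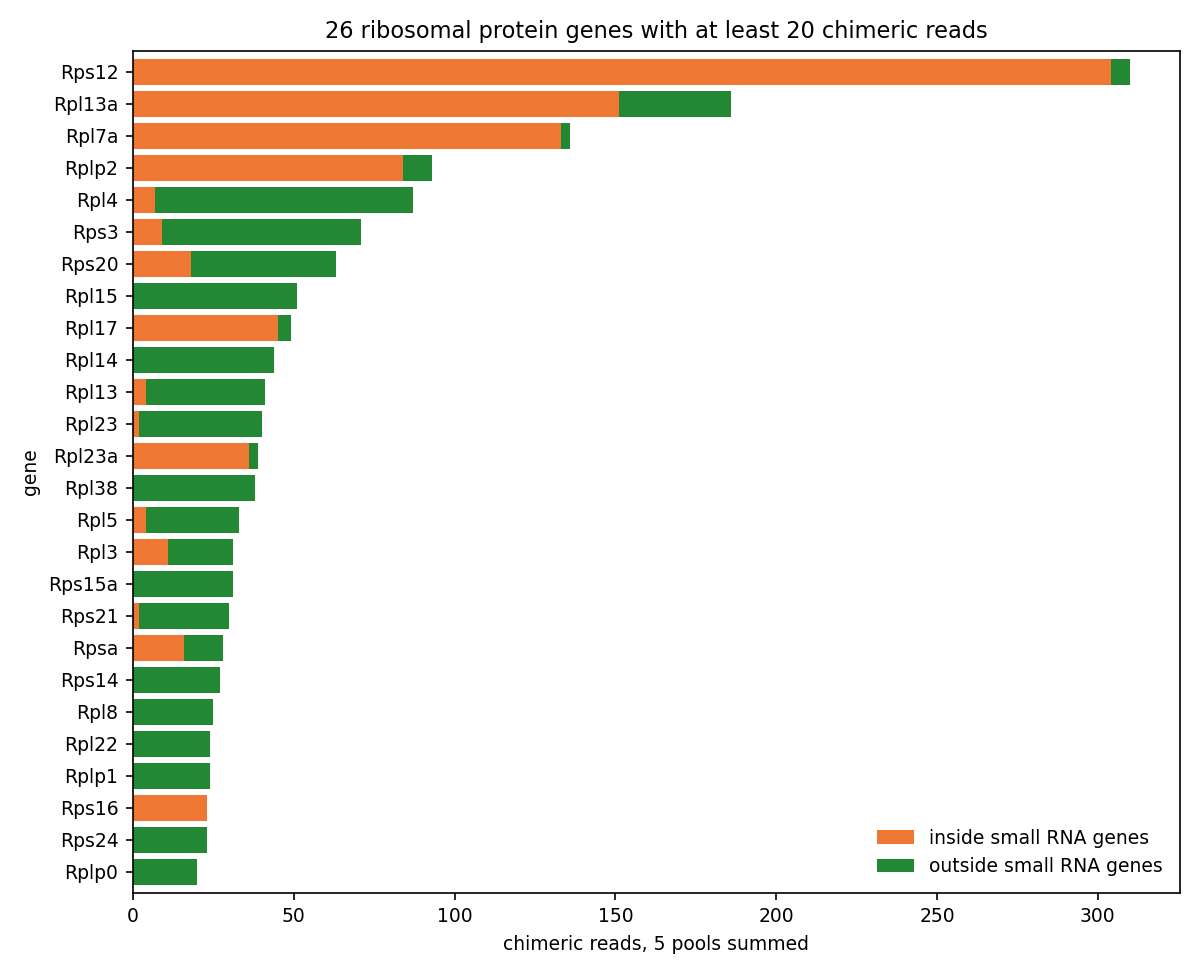
Chimeric reads summed over the 5 pools (x axis) on 26 of the 28 ribosomal protein genes with at least 20 reads (y axis), split into reads inside (orange) and outside (green) annotated small RNA genes. Rps12, Rpl13a, Rpl7a and Rplp2 lead through small RNA genes, while Rpl4, Rps3, Rpl15 and Rpl14 lead through reads outside them.

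Outside small RNA genes 1186 reads lay on 77 genes, at 3.51 reads per kb of gene span, against 0.850 for all other protein-coding genes, whose median span was 17259 bases compared with 3183. Exons, introns and UTRs were not annotated in the sources used here, so the position of these sites within the transcripts was not analysed here. Overlapping target parts on a strand were joined to sites. Of 505 sites, 281 were single reads and 73 held at least 5 distinct chimeras (different position or miRNA), which together took 67.0% of the reads. In 34 of the 73 a single seed accounted for at least 50% of reads, and 7 of these 34 lay in small RNA genes.

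Rps20, a small subunit protein, carried the site of the miR-200 family (chromosome 4, 3834493 to 3834592, minus strand). It held 30 reads, 1 in set 1 control, 0 in set 1 DKO, 8 in uninduced, 0 in set 2 DKO and 21 in induced cells. miR-200b-3p, miR-200c-3p and miR-429-3p accounted for 26 of the 30 (86.7%). No read was seen in either DKO pool, against 2.55 per 100000 in uninduced cells. For these miRNAs on Rps20 outside small RNA genes, the set 2 DKO to uninduced ratio was 0 (0 to 1.04) per read of the pool and 0 (0 to 17.8) per read of the same miRNAs, so the depth did not show a difference. The induced level was 5.01 per 100000, 1.97 times the uninduced one (0.837 to 5.14).

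Over all ribosomal protein genes the miR-200 family (miR-141, miR-429 and miR-200a, miR-200b and miR-200c, known for maintaining the epithelial state) held 3 of 242 reads in set 1 control (1.24%, 0.256 to 3.58), 32 of 542 in uninduced (5.90%, 4.07 to 8.23) and 58 of 838 in induced cells (6.92%, 5.30 to 8.86). In the DKO pools it held 0 of 60 and 0 of 427 reads, with upper interval ends of 5.96% and 0.860%. The ratio of DKO to control was 0 (0 to 0.155) in set 2 and 0 (0 to 9.76) in set 1, where the depth did not show a difference. On other protein-coding genes the family held 3.62% and 0.167% in set 1 and 7.43%, 0.391% and 10.00% in uninduced, DKO and induced cells. The induced ratio on ribosomal protein genes was 1.17 (0.749 to 1.87), against 1.35 (1.32 to 1.37) elsewhere, and its interval includes both 1 and 1.35.

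By member, miR-200c-3p gave 14 reads in uninduced and 23 in induced cells and miR-200b-3p 4 and 21. miR-141-3p gave 8 and 11, miR-200a-3p 3 and 1, and miR-429-3p 2 and 2. In read numbers miR-200b-3p showed the largest step of the family here. Its reads anywhere also rose, from 3000 in uninduced to 10174 in induced cells. Rps20 took 28 of all the family's reads, followed by Rpl13a and Rpl4, a large subunit protein, with 11 each. miR-10a-5p gave 2 reads, both in the induced pool, where 903 of its reads were found in all. Its share relative to other protein-coding genes was 0.440 (0.0533 to 1.59) over the 5 pools, an interval that includes 1. miR-10b-5p gave none.

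Rpl15, a large subunit protein, carried a site of miR-96-5p (chromosome 14, 18268742 to 18268820, minus strand), a miRNA of the sensory and epithelial miR-183 cluster. Its 37 reads, 32 of them miR-96-5p, came as 0, 0, 22, 3 and 12 in the order of pools. The uninduced pool was the highest, at 7.00 per 100000, against 1.43 in DKO (ratio 0.204, 0.0391 to 0.679) and 2.86 in induced cells (0.409, 0.184 to 0.863). Against all miR-96-5p reads of the pools, the ratios of its reads on the gene were 0.297 (0.0336 to 1.23) and 0.500 (0.215 to 1.11), both with intervals that include 1.

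Rpl14, a large subunit protein, had 2, 2, 6, 6 and 28 reads, none in a small RNA gene. Its main site (chromosome 9, 120574122 to 120574238, plus strand) held 40 reads, 21 (52.5%) of the miR-15 and miR-16 seed. The induced pool was at 6.20 per 100000 there against 1.59 in uninduced cells, a ratio of 3.90 (1.47 to 13.0). For the whole gene the ratio of 3.50 (1.42 to 10.3) became 2.37 (0.910 to 7.25) with each combination counted once.

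Rpl13, of the large subunit, had a site of 34 reads (chromosome 8, 123105178 to 123105244, plus strand) in which miR-92a-3p, miR-32-5p and miR-25-3p gave 15 (44.1%), the seed also seen at the Rpl7a snoRNA. All 34 came from set 2, with 12, 9 and 13 reads. Rpl4 had 9, 3, 25, 13 and 37 reads from 40 miRNAs, led by miR-21a-5p with 14, and Rps3 had 6, 4, 24, 11 and 26 from 36. These genes showed many miRNAs rather than a single leading one.

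**Figure D4:**
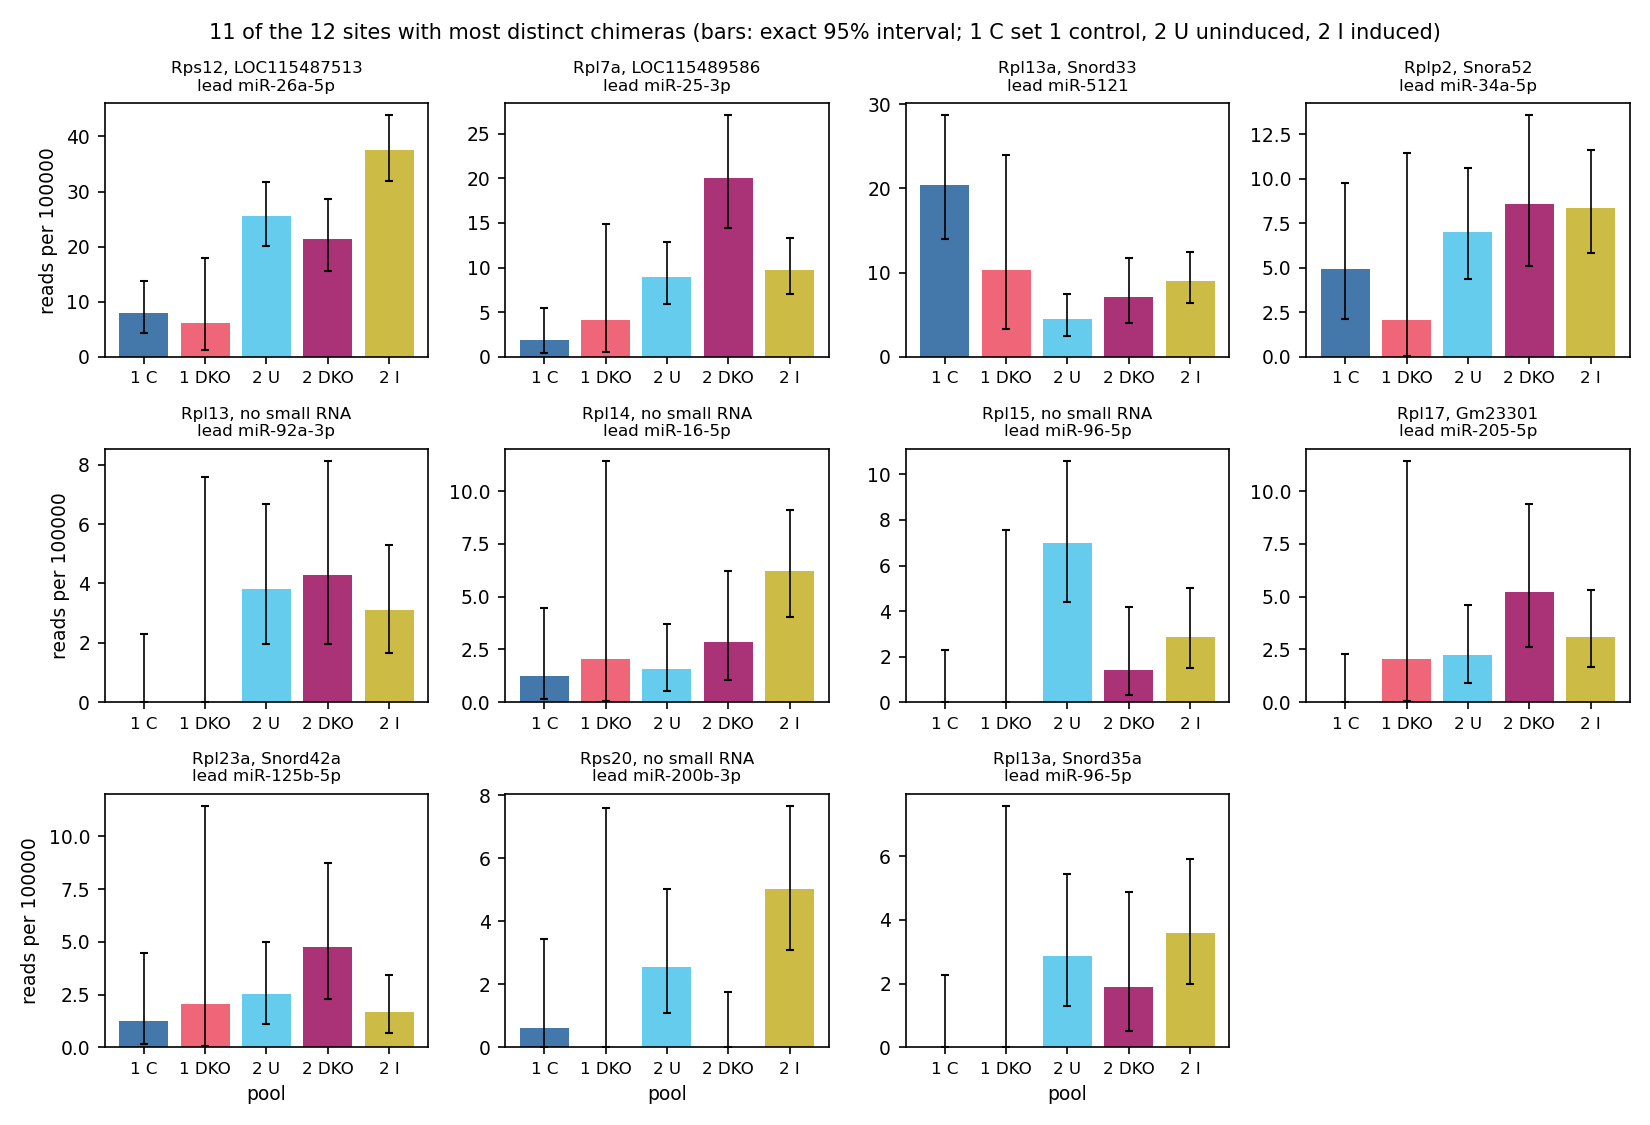
Reads per 100000 (y axes, scaled per panel) in the 5 pools (x axes: 1 C set 1 control, 1 DKO set 1 DKO, 2 U uninduced, 2 DKO set 2 DKO, 2 I induced) at 11 of the 12 sites with most distinct chimeras; whiskers are exact 95% intervals. The Rps20 site has no read in the DKO pools, the Rpl7a snoRNA is highest in set 2 DKO at 20.0, and the Rpl15 site is highest in uninduced cells at 7.00.

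Further sites led by 1 miRNA or family were chosen after their values were seen. All 20 reads of miR-1191b-3p on ribosomal protein genes lay at a site of 53 bases in Rpl38 (chromosome 11, 114670253 to 114670305, plus strand), and were 3.89% of all its reads. By pool they were 7, 3, 1, 7 and 2. miR-193a-3p gave 18 of 30 reads of Rps21, 10 in uninduced, 0 in DKO and 8 in induced cells. The DKO to uninduced ratio was 0 (0 to 0.667) per read of the pool and 0 (0 to 2.08) per read of miR-193a-3p, an interval that includes 1. This miRNA had 29 reads on 11 ribosomal protein genes in all. miR-7221-3p gave 9 of 10 reads at a site of Rpl11, 6 of them in set 1 control, and had no read on another ribosomal protein gene. At Rpl35a (chromosome 16, 33058850 to 33058885) all 13 reads of a site named let-7 miRNAs, 6 different ones.

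At Rps13 the reads of a let-7 miRNA lay near the annotated start of the gene. Of 10 reads at its leading site (chromosome 7, 116334097 to 116334162, minus strand), 8 named let-7e-5p, 3 in set 1 DKO and 5 in uninduced cells, from 6 distinct chimeras. The 22 bases of this target that fall within 50 bases after the annotated start, at chr7:116334141-116334162 on the minus strand, are shown because they hold CTACC, in capitals, the reverse complement of the last 5 bases of the seed.
let-7e-5p: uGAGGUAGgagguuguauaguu
Rps13 target: atttcctgtgccgtttcCTACC

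On the strand of the gene, CTACC occurred in 1.08% of 32851 windows of the same length and place at gene starts. The match describes these letters only, and 16536 reads of let-7e-5p were found in all. The shown stretch ends at the last letter of CTACC, while the target runs on to 116334097. Whether the match continues over the rest of the seed was not tested. Since the site was chosen after its values were seen, the rate of CTACC is no test of the match.

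On Rpl23 and Rps15a the most frequent miRNA was miR-3470b, which was among those overrepresented in set 1. Rpl23, of the large subunit, had 22, 4, 4, 4 and 6 reads, of which miR-3470b gave 12, 8 of them in set 1 control. Rps15a, of the small subunit, had 3, 4, 5, 9 and 10, with miR-3470b at 6, all at a single site. Rpl38, also of the large subunit and led by miR-1191b-3p, had 9, 4, 3, 12 and 10.

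Genes similar to ribosomal proteins but outside the core set were sparse. Rpl7l1, which acts in making the large subunit, had 9, 0, 2, 2 and 6 reads, 6 of 19 with miR-6918-3p, and Rps27l, a p53-responsive copy of Rps27, had 1, 1, 3, 0 and 1. The 8 paralogs had 32 reads in all and the 3 retrogenes 6. No read was counted on 11 genes, namely Rpl10l, Rpl19, Rpl28, Rpl32l, Rpl39l, Rpl3l, Rps23, Rps23rg1, Rps27, Rps27rt and Rps29. A gene with near-identical processed copies can lose or gain reads in alignment, so these counts are uncertain.

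By subunit, the 43 genes of the large subunit had 1044 reads and the 31 of the small subunit 883. The ratio of large subunit and stalk reads to small subunit reads was 1.82 (1.38 to 2.41) in set 1 control, 0.903 (0.522 to 1.56) in set 1 DKO, 1.17 (0.981 to 1.39) in uninduced, 1.81 (1.48 to 2.23) in set 2 DKO and 1.19 (1.04 to 1.37) in induced cells. Without Rps12 the 3 pools of set 2 stood at 1.74 (1.43 to 2.12), 2.70 (2.14 to 3.43) and 2.10 (1.78 to 2.48). Leaving out a small subunit gene can only raise this ratio. Large subunit and stalk reads in DKO over control were 0.624 (0.401 to 0.940) in set 1 and 1.41 (1.19 to 1.67) in set 2, opposite directions. In set 1 these are 28 against 149 reads, of which 5 and 33 were the miR-5121 reads on Snord33. In set 2 they are 270 against 287 reads, of which 42 and 28 lay on the snoRNA LOC115489586 of Rpl7a. Ratios without these places are not given here. The small subunit ratios were 1.26 (0.803 to 1.92) and 0.906 (0.734 to 1.11).

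Gene by gene, few members were called between pools. A gene was called higher or lower if its ratio's interval lay wholly above or below 1, and was testable with 20 or more reads over both pools. In set 1 this called 0 of 2 testable members, against 17.2% of all protein-coding genes (8.02% higher and 9.15% lower). In set 2 DKO it called 2 of 13 as higher and none as lower, against 26.6% of genes (13.8% higher and 12.9% lower). After induction it called 2 of 17 as higher and none as lower, against 8.56% of genes (4.64% higher and 3.91% lower). In DKO these counts are near the share over all genes. The median ratio over the tested members was 1.12 in both set 2 comparisons, against 1.02 and 1.03 for all genes tested.

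The members higher in set 2 DKO were Rpl7a, with 49 reads against 34 (ratio 2.16, 1.36 to 3.44), and Rpl17, with 15 against 9 (2.49, 1.02 to 6.46). Rpl7a kept an interval above 1 with each combination counted once (2.05, 1.28 to 3.33), and Rpl17 did not (2.22, 0.894 to 5.81). After induction they were Rps12 and Rpl14, as given above, and neither kept an interval above 1 under that count. Both comparisons of set 2 share the uninduced control.

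The miRNAs on these genes were compared with those on all other protein-coding genes, which share library and depth. Over the 5 pools, 27 of 829 miRNAs with at least 20 reads had a larger share on ribosomal protein genes (3.26%) and 21 a smaller one (2.53%), 5.79% together. By pool, 7 of 446 (1.57%) were higher and 3 (0.673%) lower in set 1 control, 2.24% together, and 6 of 153 (3.92%) were higher and 0 lower in set 1 DKO, 3.92% together. Uninduced cells had 12 of 268 (4.48%) higher and 3 (1.12%) lower, 5.60% together. Set 2 DKO had 9 of 241 (3.73%) higher and 2 (0.830%) lower, 4.56% together, and induced cells 13 of 303 (4.29%) higher and 8 (2.64%) lower, 6.93% together. With at least 20 reads on ribosomal protein genes, the largest ratios were those of miR-5121, miR-7650-5p and miR-1191b-3p, each on 1 gene, followed by miR-26b-5p (11.1, 8.94 to 13.5) and miR-25-3p (10.4, 7.65 to 14.0). miR-34a-5p stood at 10.2 (7.64 to 13.4) and miR-26a-5p at 6.93 (5.89 to 8.11), with 7.59% of reads on ribosomal protein genes against 1.09% elsewhere. The snoRNA of Rps12 took 146 of the 160 reads of miR-26a-5p, and Rplp2 took 51 of the 54 of miR-34a-5p.

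Of the 30 miRNAs with at least 20 reads on these genes, the most abundant in the data had the lowest ratio. miR-31-5p, known from hyperproliferative skin, gave 103 reads, 4.88% against 10.1% on other genes (ratio 0.484, 0.395 to 0.587), spread over 37 genes. miR-141-3p was at 0.546 (0.334 to 0.844), miR-29a-3p at 0.598 (0.365 to 0.924) and miR-21a-5p at 0.786 (0.632 to 0.966). Without the reads in small RNA genes, miR-31-5p was at 0.564 (0.438 to 0.715), while the intervals of miR-141-3p (0.724, 0.405 to 1.19), miR-29a-3p (0.847, 0.484 to 1.38) and miR-21a-5p (0.930, 0.706 to 1.20) included 1. There, 23 of 813 miRNAs were higher and 9 lower, among the higher miR-96-5p (2.85, 2.06 to 3.83), miR-193a-3p (2.45, 1.63 to 3.55) and the epithelial miR-205-5p (1.62, 1.25 to 2.06).

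For other leading miRNAs the interval of the ratio included 1. miR-27a-3p was at 0.931 (0.756 to 1.13), miR-23a-3p at 0.860 (0.668 to 1.09), miR-125b-5p at 1.00 (0.789 to 1.25) and miR-3470b at 1.05 (0.739 to 1.45). Intervals that include 1 do not show equality. miR-27a-3p gave 7, 0, 19, 40 and 32 reads by pool, and miR-23a-3p 9, 2, 9, 27 and 21, both with their highest number in set 2 DKO.

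**Figure D5:**
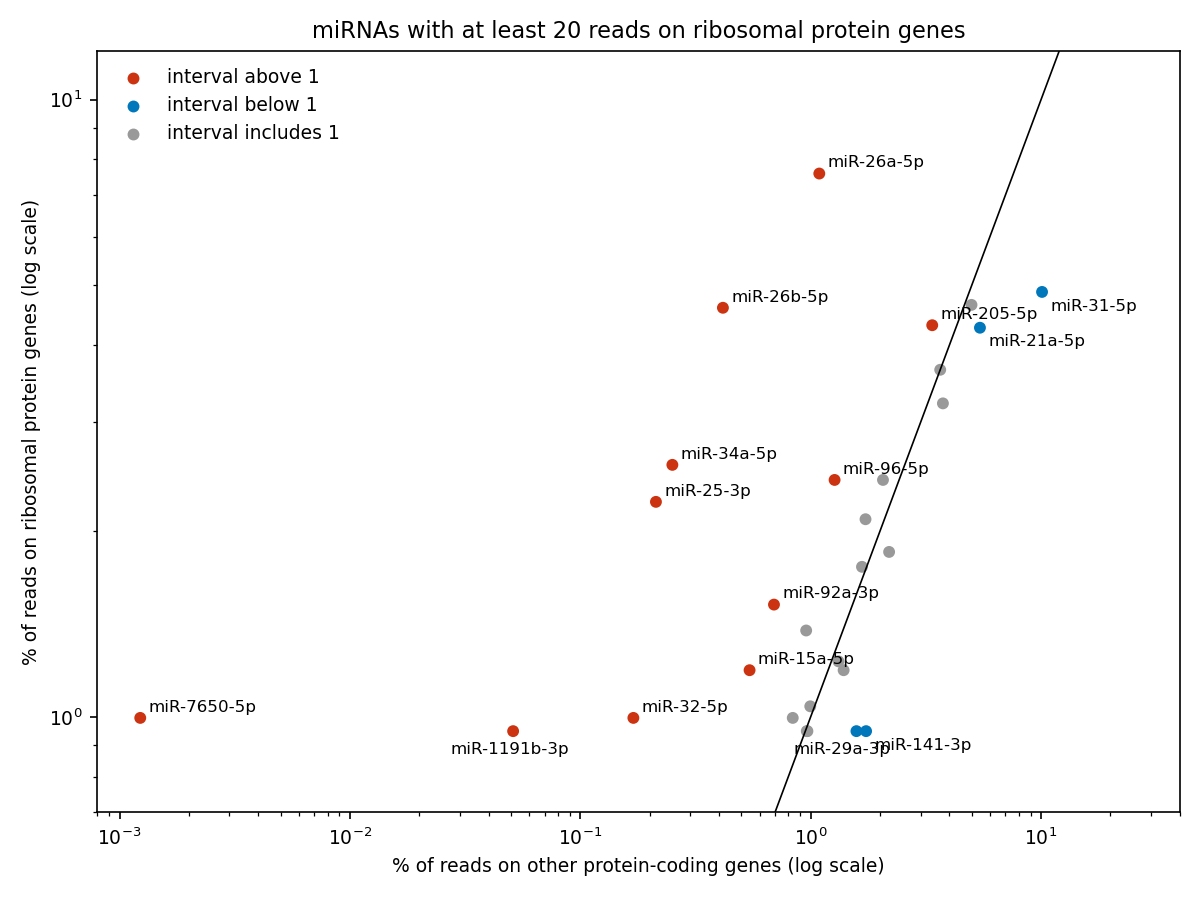
Share of each of 29 miRNAs among reads on ribosomal protein genes (y axis, %, log scale) against its share on all other protein-coding genes (x axis, %, log scale), 5 pools summed, with the line of equal shares; red and blue mark ratios whose exact 95% interval lies above or below 1. miR-5121, with no read on other protein-coding genes, has no place on a log axis and is not drawn, and miR-26a-5p, miR-26b-5p, miR-25-3p and miR-34a-5p lie far above the line while miR-31-5p lies below it.

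Genes that control or surround ribosomal proteins were covered mostly outside small RNA genes. All 12 listed regulators of the pyrimidine-tract mRNAs had reads, 1750 in all, led by Larp1, which binds that tract (407), the translation repressor Eif4ebp2 (375) and the mTORC1 subunit Rptor (304). Of those testable, 1 of 5, 2 of 9 and 2 of 10 were higher in set 1 DKO, set 2 DKO and induced cells and none lower. Over all protein-coding genes 8.02%, 13.8% and 4.64% were called higher and 9.15%, 12.9% and 3.91% lower in these comparisons, which is the background for this and the following lists. Such small counts show nothing particular to a list. Larp1 was higher in set 2 DKO (1.54, 1.09 to 2.18), while its set 1 DKO ratio was 0.715 (0.469 to 1.06). Of 37 ribosome biogenesis genes all had reads (1320), and 1 of 9 was higher and 1 lower in set 2 DKO, and none of 11 was called after induction. The nucleolar protein Ncl, itself a snoRNA host, had 65 of its 133 reads in small RNA genes and a DKO ratio of 2.24 (1.14 to 4.52) in set 2, against 0.495 (0.189 to 1.10) in set 1. Efl1, which helps release a factor from the large subunit, was lower in set 1 DKO, with 1 read against 23 (0.144, 0.00351 to 0.890), 1 of 4 testable there, and at 0.924 (0.509 to 1.64) in set 2 DKO. Wdr43, which acts in early assembly, had 105 reads.

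Elongation factors and other mRNAs with the tract had 996 reads on 13 of 14 genes, led by Npm1 (334), a nucleolar chaperone, Pabpc1 (134), which binds poly(A), and Eef2 (117), which drives translocation. None of 2 (set 1) and none of 7 (set 2) testable genes was called in the DKO comparisons, and 1 of 8 was lower after induction, Eef2 (0.596, 0.371 to 0.951). Of the p53 pathway, which senses free ribosomal proteins through Mdm2, all 4 listed genes had reads (818). Mdm2 was higher in set 1 DKO (2.17, 1.32 to 3.51), 1 of 2 testable, and at 1.01 (0.733 to 1.38) in set 2 DKO, where none of 3 was called. Mdm4 was higher after induction (1.42, 1.10 to 1.86), 1 of 3 testable. Trp53, p53 itself, had 57 reads. Among ribosomal proteins with other names, Rack1, a scaffold on the small subunit, had 86 reads and Fau had 0.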

How the data were processed

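Chimeric reads from 18 CLEAR-CLIP libraries in 5 pools were used. The deposited values are of another kind than counts: each entry is 1 chimeric read with mm10 position, strand, a 4-base barcode and a miRNA name, per the file headers. The authors used Novoalign, cutadapt and bedtools, per the submitters' processing notes; their versions and how copies were collapsed are not given in the sources used here. Reads were assigned by target midpoint to RefSeq gene spans (GRCm38.p6) with pandas 2.3.3, shares got exact Clopper-Pearson and ratios conditional exact 95% intervals (scipy 1.17.1, checked on simulated data), and coordinates count from 1. Amplified copies may remain, since 4-base barcodes are few, so intervals cover counting error only. No edgeR or other count test could be run, since libraries are not named. Of the 1797 miRNA names, 1512 matched RefSeq, which covers 93.3% of the reads on ribosomal protein genes. Reads within several protein-coding genes (26, of which Rpl32 15) were left out.

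Genes, lists and comparisons were chosen with earlier results of these data known. Named genes are the 15 leading by mean share over the pools, those called in a comparison, and stalk and paralog genes with at least 5 reads; named miRNAs are the 10 with the highest mean share, miR-200 and miR-10 members and the 5 largest ratios per direction with at least 20 reads; named sites are the 12 with most distinct chimeras, and of each pathway list the 3 genes with most reads. Seed families at sites, and other genes named for a single miRNA, were chosen after their values were seen. Some genes that these rules name are not reported here, though all counts include them. Alternatives counted each combination of position, strand and miRNA once, left out reads shared between pools of a set, 9 miRNAs, small RNA targets, the other strand, Rps12, marked read names or reads beside the gene of their own miRNA (added after the data were seen), or changed the count minimum (10, 50), the fold (2), the denominator or the site minimum (10).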

Additional observations from a re-analysis of the deposited data

Results flagged for a closer look

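The ratio of DKO to control for the share of reads on ribosomal protein genes was 0.824 (0.610 to 1.10) in set 1, an interval that includes 1. In set 2 it was 1.18 (1.04 to 1.34), and 1.12 (0.979 to 1.29) with each combination counted once. The difference between the sets was not tested, since each group is 1 pool, and set 1 rests on 60 DKO reads.

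Reads whose midpoint lay in genes annotated as ribosomal protein pseudogenes, and in no protein-coding gene, were not used in the comparisons. They numbered 9 in set 1 control, 10 in set 1 DKO, 28 in uninduced, 28 in set 2 DKO and 45 in induced cells, or 5.57, 20.5, 8.92, 13.3 and 10.7 per 100000, each above the 3 reads that a count of 0 allows. How many of them belong to the parent genes was not tested.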

How the results depend on the processing

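Of 276 recomputed values 237 stayed within their interval or within 1.5 times a count, 39 moved and 0 reversed. The depth limits set 1 most: its DKO pool holds 60 reads on these genes. No paired analysis was possible because the pools do not name their libraries, and for the same reason leaving out replicates was not run.

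Counted once per combination, the large to small ratio was 1.44 in induced cells, 1 member was higher in set 2 DKO and 0 after induction; miRNAs lower were 1 (set 1 control), 1 (set 2 DKO) and 3 (induced), and 3 higher in set 1 DKO. Without shared reads, 1 member was higher and 1 miRNA lower in set 2 DKO. Without the 9 miRNAs, 1 member, Rpl13a, was lower in set 1 DKO (0.379, 0.117 to 0.966) and 0 miRNAs lower in set 1 control. All 5 DKO reads of Rpl13a and 33 of its 38 control reads were those of miR-5121 beside its own gene. In the main count its ratio was 0.437 (0.134 to 1.11), and 9.15% of all protein-coding genes were called lower. The share called over all genes without the 9 miRNAs is not given here. Without small RNA targets the induced share ratio was 1.00, the large to small ratio 1.50 in induced cells, members higher 0 (set 2 DKO) and 1 (induced), miRNAs higher 2 (set 1 DKO), 7 (uninduced), 3 (set 2 DKO) and 8 (induced), and lower 1 (set 1 control), 0 (set 2 DKO) and 1 (induced). On the gene's strand alone the set 1 control ratio was 2.42, 1 member was higher in set 2 DKO, and miRNAs were 4 higher in set 1 control and 5 lower in uninduced cells; this alternative leaves out 20 genes of unknown strand. Without Rps12 the large to small ratios were 1.74, 2.70 and 2.10 in set 2, the induced share ratio 1.10 (0.975 to 1.24), 1 member was higher after induction, and miRNAs lower were 1 (set 2 DKO) and 4 (induced). With at least 10 reads 13 miRNAs were higher in set 1 control, and with 50 reads 4; with 50 reads 1 member was higher in each set 2 comparison. At 2-fold 1 member was higher after induction and 1 miRNA lower in set 2 DKO. With 10 distinct chimeras 27 sites remained of 73. Apart from these constructions, the cause was not tested.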
